A study of Mus musculus with 8 samples.

Results

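The genes described here run mitosis, from entry into division to the separation of the daughter cells. They are 49 genes of the count table, taken by symbol out of 56748 rows, and each symbol matched 1 row. They were read in fibroblasts cultured from hearts of wild-type C57BL/6J mice aged 1 day. The cells were kept in medium with fetal bovine serum and either left without treatment (4 libraries) or given TGF-β1, a cytokine that turns fibroblasts toward the matrix-producing myofibroblast, at 10 ng/mL for 48 h (4 libraries). All libraries hold polyadenylated RNA of primary cells that attached in a short plating step. The cells came from collagenase-digested whole hearts, and the replicates are described as separate isolations from different litters. The untreated label names no vehicle, and no library is labelled with Mirin, an inhibitor that the treatment protocol also mentions.

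Mitosis is driven by the kinase CDK1 with its cyclins, which condenses chromosomes, builds the spindle and, once every kinetochore is attached, gives way to proteolysis by the anaphase-promoting complex (APC/C). Most of the genes for this machinery are transcribed late in the cell cycle and are shut off in resting cells. Their common switch is known to pass through the CHR promoter element, read by the MuvB complex with either repressing DREAM subunits or the activators MYBL2 and FOXM1, and through CCAAT boxes bound by NF-Y. Neonatal cardiac fibroblasts still divide in culture, so these genes are a usual readout of how many cells are cycling.

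The promoters were looked at first because many mitotic genes are known to carry these elements, which the choice by symbol did not use. RefSeq start sites were at hand for 39 of the 49 (build GRCm38.p6, 250 bases before to 50 after the first listed start). The CHR element was searched as TTTGAA, its reverse complement TTCAAA and the palindrome TTCGAA, and the CCAAT box as CCAAT and ATTGG, so both strands were covered. A CHR and a CCAAT match can share at most 1 base. Below, capitals mark every CHR and CCAAT match in 6 promoters. Ccnb2, Hmmr, Ttk and Cdk1 were chosen for a CHR match in the last 100 bases and at least 2 CCAAT boxes. That arrangement was found in 15 of the 39 promoters. The others are the member with the largest fall and no match (Nuf2), and the member with the smallest fall, which carries both motifs (Bub3).
Ccnb2, chr9:70421505-70421804, minus strand: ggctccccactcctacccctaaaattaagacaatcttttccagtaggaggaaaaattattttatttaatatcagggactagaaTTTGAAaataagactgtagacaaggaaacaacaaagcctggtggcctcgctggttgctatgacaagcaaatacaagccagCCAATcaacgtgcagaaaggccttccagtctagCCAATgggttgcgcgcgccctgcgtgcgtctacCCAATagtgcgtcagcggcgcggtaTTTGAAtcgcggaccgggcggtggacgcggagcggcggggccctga
Hmmr, chr11:40733388-40733687, minus strand: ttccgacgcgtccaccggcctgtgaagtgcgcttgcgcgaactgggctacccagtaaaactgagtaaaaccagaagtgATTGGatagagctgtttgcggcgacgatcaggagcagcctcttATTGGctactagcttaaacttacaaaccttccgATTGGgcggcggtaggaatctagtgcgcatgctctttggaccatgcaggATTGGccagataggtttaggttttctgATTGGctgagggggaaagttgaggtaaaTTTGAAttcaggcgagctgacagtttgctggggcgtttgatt
Ttk, chr9:83834439-83834738, plus strand: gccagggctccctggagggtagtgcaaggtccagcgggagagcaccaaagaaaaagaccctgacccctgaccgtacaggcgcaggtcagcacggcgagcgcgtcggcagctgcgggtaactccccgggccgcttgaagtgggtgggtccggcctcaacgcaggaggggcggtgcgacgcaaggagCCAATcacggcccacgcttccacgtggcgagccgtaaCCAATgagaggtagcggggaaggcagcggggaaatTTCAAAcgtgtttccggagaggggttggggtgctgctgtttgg
Cdk1, chr10:69352863-69353162, minus strand: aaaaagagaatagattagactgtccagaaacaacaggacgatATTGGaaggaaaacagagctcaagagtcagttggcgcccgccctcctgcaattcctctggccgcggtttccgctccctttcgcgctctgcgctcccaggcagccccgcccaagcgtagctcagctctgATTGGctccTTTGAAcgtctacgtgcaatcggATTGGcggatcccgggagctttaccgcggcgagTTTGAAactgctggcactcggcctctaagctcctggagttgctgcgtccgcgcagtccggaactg
Nuf2, chr1:169531415-169531714, minus strand: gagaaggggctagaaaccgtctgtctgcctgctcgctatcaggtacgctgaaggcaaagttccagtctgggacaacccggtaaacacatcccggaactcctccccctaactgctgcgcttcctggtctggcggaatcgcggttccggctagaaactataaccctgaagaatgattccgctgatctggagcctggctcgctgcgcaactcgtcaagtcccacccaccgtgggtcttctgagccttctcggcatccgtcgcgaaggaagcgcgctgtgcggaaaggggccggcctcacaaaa
Bub3, chr7:131560120-131560419, plus strand: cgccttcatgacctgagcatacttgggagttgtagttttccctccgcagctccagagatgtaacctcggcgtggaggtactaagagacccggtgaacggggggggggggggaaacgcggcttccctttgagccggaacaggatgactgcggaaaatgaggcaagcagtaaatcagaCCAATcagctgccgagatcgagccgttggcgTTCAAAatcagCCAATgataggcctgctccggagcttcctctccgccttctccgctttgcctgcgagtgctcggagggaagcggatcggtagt
In Ccnb2, 3 CCAAT boxes begin 87, 54 and 21 bases before the start site and a CHR element begins at base 5 after it, counting the start as 1. Hmmr has 5 CCAAT boxes and a CHR element at base 9, and Ttk has 2 boxes and a CHR element at base 8.

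A CHR match lay in 29 of the 39 promoters (74.4%). The same letters lay in 18.15% of 17492 promoters of protein-coding genes and in 13.5% of the 9933 promoters of tested coding genes that are not among the 49. Within the last 100 bases of the window, which span the start site, 27 of 39 had a CHR match (69.2%) against 3.15% of those other tested genes. CCAAT boxes lay in 27 of 39 (69.2% against 38.7%), and 18 had at least 2 (46.2% against 15.0%). Both a CHR match near the start and at least 2 CCAAT boxes were found in 15 of 39 (38.5% against 0.695%). A pair of boxes whose first bases lie 31 to 33 apart was found in 7, namely Cdk1, Ccnb1, Ccnb2, Aurka, Spc25, Hmmr and Ube2c (17.9% against 1.74%). A strict E2F site (GGCGGGAA or TTCCCGCC), the mark of many S-phase promoters, was found in 1 of 39, Ncapg2 (2.56% against 4.17%). This exact string is longer than the CHR letters and misses other forms of the site, so E2F sites are not shown to be absent. Neither CHR nor CCAAT letters were in the windows of Mybl2, Birc5, Mad2l1, Nuf2, Ncaph, Nusap1, Pttg1 and Cit. The 29 genes with a CHR match had a median log2 fold change of −2.50 and the 10 without one −2.63, and this difference was not tested. These are counts of letters and not of bound factors.

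**Figure D1:**
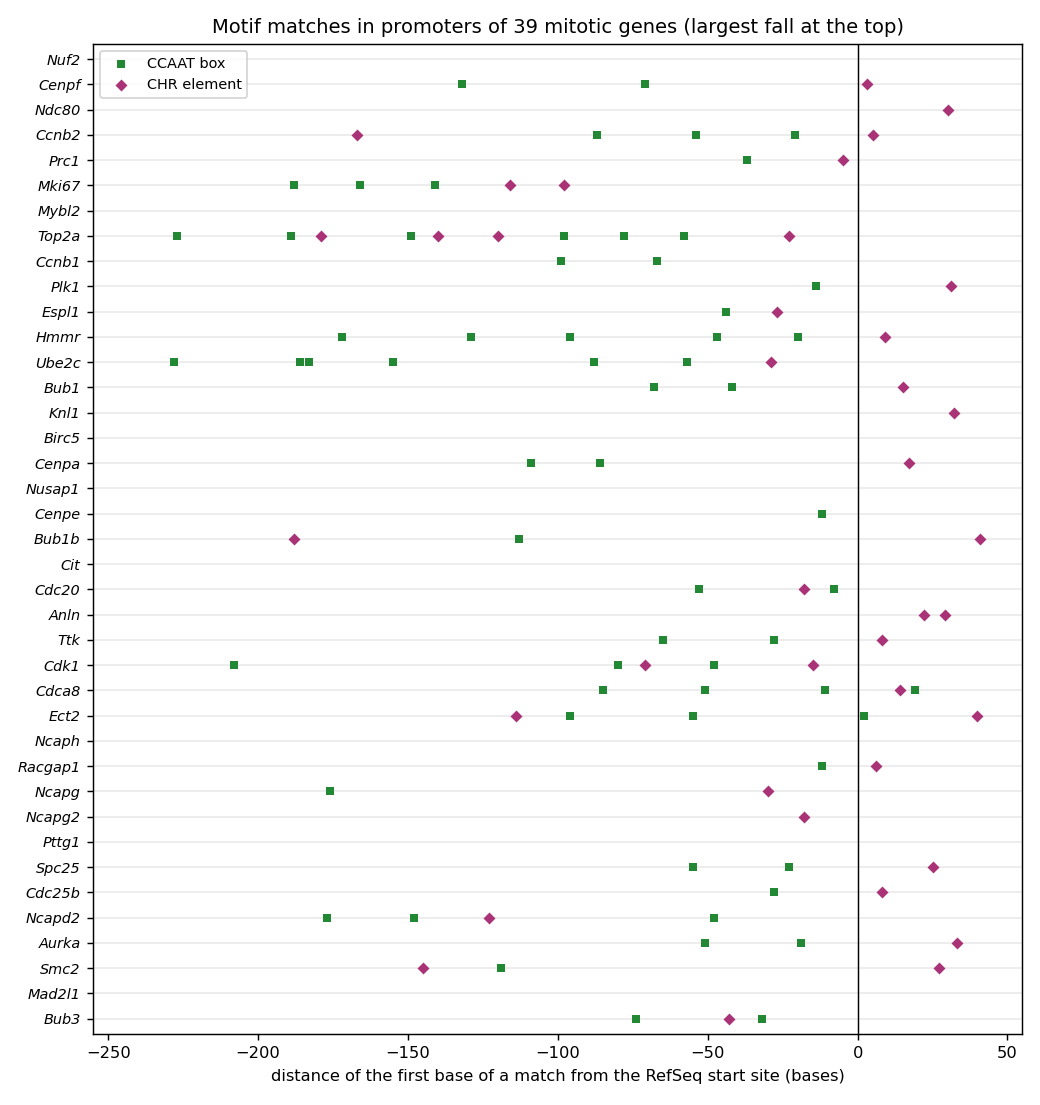
Positions of CHR matches (diamonds) and CCAAT matches (squares) in the promoters of 39 mitotic genes, by distance in bases from the RefSeq start site, with genes ordered by log2 fold change from the largest fall (Nuf2) to the smallest (Bub3). CHR matches gather around the start site (27 genes have one in the last 100 bases of the window) and CCAAT boxes upstream of it, at all sizes of change.

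Library totals ran from 14340740 to 17176898 counts, and 13960 genes passed the filter on low counts, all 49 mitotic genes among them. Fibroblast collagens were abundant, with Col1a1 at a mean of 6963 CPM (counts per megaread of the TMM-scaled library total) in untreated cells, while the haemoglobin genes Hba-a1, Hbb-bs and Hbb-bt had 1 read in all libraries together. Untreated replicate 1 stood apart in ribosomal RNA, with 0.0322% of its counts, where the other untreated libraries had 2.05% to 2.40% and the treated group had 1.05% to 2.47%.

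Every one of the 49 genes was lower in the cells given TGF-β1. By the edgeR quasi-likelihood test with Benjamini-Hochberg adjustment over 13960 genes, 49 of 49 were lower at an adjusted p under 0.05 and none was higher. Over all tested genes 18.5% were called lower and 17.6% higher. The median log2 fold change of the members was −2.54, a level 5.82-fold lower, against 0.01 for all tested genes. In 47 of 49 the fall was 2-fold or more, as it was in 4.63% of tested genes. In 36 of 49 it was 4-fold or more, as it was in 1.33% of tested genes, and these 36 make up 19.4% of the 186 genes that fell so far. In 30 of the 49 under 20% of the untreated level was left, in 17 it was 20% to 40%, and the 2 others were Smc4 and Bub3. In all 49 the highest treated library lay below the lowest untreated one, which holds for 17.4% of tested genes. In bulk RNA, fewer dividing cells and less of these transcripts in each cell cannot be told apart.

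Summed over the 49 genes, untreated replicates 1 to 4 held 1219, 1212, 1109 and 1217 CPM, and the treated replicates 1 to 4 held 326, 308, 344 and 355 CPM. The groups were thus far apart. Untreated replicate 3 was the lowest of its group for 33 of 49 genes, and treated replicates 3 and 4 were the highest of theirs for 19 and 20. Low counts limit the treated values: 20 members had under 50 counts in every treated library, and the lowest single count was 6, while no untreated count of a member was under 61. In 45 of 49 every treated library held at least 10 counts. Cell type markers were counted in the same fit, and the summed levels of the endothelial and of the macrophage and blood markers overlapped between groups. Of 10 fibroblast markers (led by Col1a1, Col1a2 and Col3a1) 6 were lower (Col3a1, Dcn, Lum, Pdgfra, Tcf21 and Thy1) and 3 higher (Col1a1, Col1a2 and Pdgfrb). Their sum was 21257 to 23103 CPM in untreated and 24279 to 26002 CPM in treated libraries. The higher sum follows Col1a1 and Col1a2, whose means went from 6963 to 10684 CPM and from 3757 to 4992 CPM. Of 18 cardiomyocyte markers (led by Tnnt2, Myh6 and Actc1) 15 were lower and none higher, with none at 0 in all libraries, and their sum was 864 to 944 CPM in untreated and 475 to 554 CPM in treated libraries. Of 9 epicardial and mesothelial markers 3 were lower (Upk3b, Krt19 and Lrrn4) and 1 higher (Krt8), with Upk1b and Msln among the most abundant not called (1237 to 1294 against 1011 to 1045 CPM). Of 10 mural markers, 7 of them tested, 2 were lower (Notch3 and Des) and 4 higher (Rgs5, Cspg4, Cnn1 and Mcam) (319 to 323 against 484 to 544 CPM). Of 10 endothelial markers 2 were lower (Tek and Egfl7) and 2 higher (Pecam1 and Cdh5), with Emcn not called (87.1 to 88.0 against 80.9 to 89.2 CPM), and of 10 macrophage and blood markers, 7 tested, Lyz2 was lower and Adgre1 higher, with Csf1r and Cd68 not called and Hba-a1 and Hbb-bt at 0 in all libraries (178 to 217 against 162 to 194 CPM). The endothelial and the macrophage and blood calls are near the share over all tested genes, 18.5% lower and 17.6% higher. What part any of these cell types has in the fall of the mitotic genes was not tested. Without untreated replicate 1, the library with little ribosomal RNA, 49 of 49 were again lower.

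**Figure D2:**
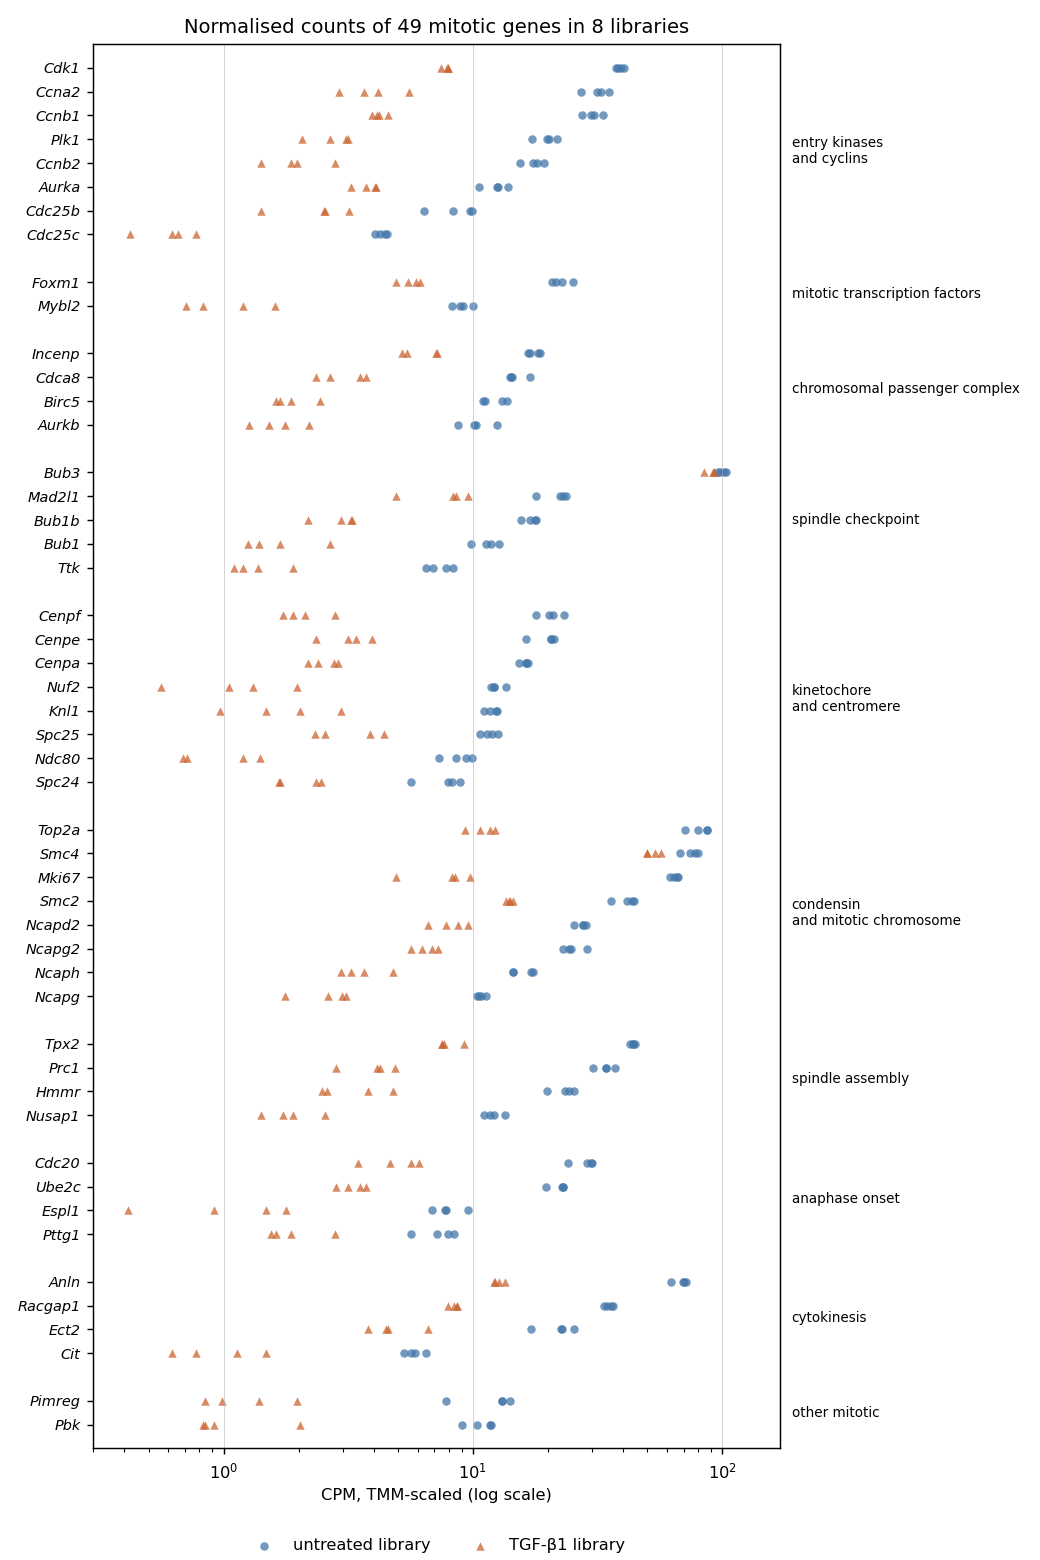
TMM-scaled CPM (log axis) of each of the 49 mitotic genes in the 4 untreated (circles) and 4 TGF-β1 (triangles) libraries, 1 row a gene, grouped by role. The groups do not overlap in any row; they lie closest for Bub3 and Smc4.

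All changes below are log2 fold changes, treated against untreated, with their SE. The kinases, cyclins and phosphatases of mitotic entry fell in 8 of 8 cases, with a median of −2.81. Cdk1, the central mitotic kinase (ENSMUSG00000019942, GRCm39 chromosome 10, 69170976 to 69188768, minus strand), was at 39.2, 40.2, 37.3 and 38.2 CPM in untreated replicates 1 to 4 and at 7.89, 7.45, 7.94 and 7.98 CPM in treated ones. Both groups were tight, and the gene changed by −2.31 ± 0.07 on the log2 scale (± SE; edgeR quasi-likelihood adjusted p = 4.78e-16). Ccnb1, its main cyclin partner, went from 33.1, 29.9, 30.5 and 27.3 to 3.94, 4.21, 4.57 and 4.11 CPM, a log2 fold change of −2.84 ± 0.10. Ccnb2, the Golgi-linked B cyclin, had 17.4, 19.2, 15.5 and 18.0 CPM without and 1.41, 1.86, 1.97 and 2.80 CPM with TGF-β1 (−3.10 ± 0.15). Ccna2, the cyclin of S phase and early mitosis, fell by 2.95 ± 0.13. The 95% intervals of the 3 cyclins did not overlap that of their kinase, which reached from 4.47-fold to 5.47-fold, while that of Ccnb1 began at 6.27-fold, of Ccnb2 at 7.0-fold and of Ccna2 at 6.51-fold.

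Plk1, a polo kinase needed from entry to cytokinesis, was at 20.3, 21.7, 19.8 and 17.3 CPM in untreated and 2.68, 2.07, 3.16 and 3.10 CPM in treated replicates (−2.84 ± 0.13). Aurka, the centrosomal Aurora kinase, fell less, from 10.6, 12.6, 13.8 and 12.4 to 4.08, 3.24, 3.72 and 4.05 CPM (−1.71 ± 0.13). In the GENCODE M39 annotation 38.6% of the exonic bases of Aurka lie under exons of Fam210b on the other strand, and whether reads were counted by strand is not known here, so its count is uncertain. Of the phosphatases that release CDK1, Cdc25b changed by −1.82 ± 0.19 and Cdc25c by −2.78 ± 0.24. Cdc25c was the least abundant member by CPM, at 4.31 ± 0.217 CPM in untreated cells (SD, n = 4), and 31.4% of its exonic bases lie under exons of 2010110K18Rik.

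Both transcription factors of the mitotic programme fell. Mybl2, the B-Myb subunit that turns MuvB into an activator, was at 8.88, 10.00, 8.21 and 9.11 CPM in untreated and 0.704, 0.828, 1.19 and 1.61 CPM in treated replicates, and fell by 3.03 ± 0.20 (edgeR adjusted p = 2.93e-11). Foxm1, the forkhead factor that joins the same complex later in the cycle, went from 25.1, 20.7, 21.5 and 22.7 to 5.49, 6.14, 4.92 and 5.90 CPM, a log2 fold change of −2.0 ± 0.10. In the list of 12 MuvB and DREAM genes, 6 were lower and none higher, with a median of −0.19. The list holds the shared core, its repressing partners and Mybl1, a relative of Mybl2. Rbl1, which encodes the pocket protein p107, fell most clearly (−1.63 ± 0.13) and Tfdp1, the E2F partner, changed by −0.41 ± 0.04, while the core subunit gene Lin37 was at 0.02 ± 0.10 (edgeR adjusted p = 0.894).

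The chromosomal passenger complex corrects wrong attachments and later guides cytokinesis, and its genes fell in 4 of 4 cases. Aurkb, its kinase, had 8.68, 10.1, 12.4 and 10.3 CPM in untreated and 1.27, 1.52, 1.76 and 2.20 CPM in treated replicates (−2.60 ± 0.17). Birc5, which encodes survivin, fell by 2.66 ± 0.16 and Cdca8, which encodes borealin, by 2.28 ± 0.14. Incenp, the scaffold that holds the complex together, fell least, from 16.9, 18.6, 16.6 and 18.3 to 7.11, 5.45, 7.17 and 5.18 CPM (−1.51 ± 0.11). A second list, of checkpoint and error correction partners, held 12 of 16 lower and 1 higher (median −1.31). In it Kntc1, a subunit of the complex that brings the checkpoint to kinetochores, fell by 3.05 ± 0.16 and Zwilch of the same complex changed by −1.72 ± 0.16, with Mad2l2 at 0.03 ± 0.09. Rcc2 was the 1 gene that rose (0.27 ± 0.04), named after its value was seen.

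Genes of the spindle checkpoint, which holds back anaphase until all chromosomes are attached, fell in 5 of 5 cases, but by very different amounts. Bub1, a kinase that recruits the checkpoint to kinetochores, went from 11.9, 12.8, 11.3 and 9.83 to 1.69, 1.38, 2.67 and 1.25 CPM (−2.72 ± 0.18). Bub1b, which encodes the inhibitor BUBR1, changed by −2.54 ± 0.13 and the checkpoint kinase gene Ttk by −2.40 ± 0.19. Mad2l1, the effector that binds CDC20, kept more of its level, with 22.3, 23.6, 17.9 and 22.9 CPM in untreated and 8.31, 4.90, 8.57 and 9.59 CPM in treated replicates (−1.46 ± 0.14). Bub3, the adaptor that carries BUB1 and BUBR1 to the kinetochore (ENSMUSG00000066979, GRCm39 chromosome 7, 131161951 to 131173624, plus strand), barely moved. It had 98.1, 104, 102 and 95.8 CPM in untreated and 92.6, 84.6, 92.0 and 92.6 CPM in treated replicates. The groups lie close together without overlap, and the log2 fold change of −0.14 ± 0.04 passed the threshold (edgeR adjusted p = 0.0146). Without untreated replicate 2 its adjusted p was 0.0584 and without treated replicate 2 it was 0.0613.

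At the kinetochore, which ties chromosomes to microtubules, 8 of 8 genes fell. The NDC80 complex is its microtubule grip. Nuf2 had the largest fall of all 49 (ENSMUSG00000026683, GRCm39 chromosome 1, 169325503 to 169359033, minus strand), from 12.2, 12.2, 11.8 and 13.5 to 0.563, 1.31, 1.05 and 1.97 CPM (−3.30 ± 0.20), and ranked 13th lowest of 13960 tested genes. Ndc80, its coiled-coil partner, went from 9.88, 8.54, 7.33 and 9.41 to 1.2, 0.690, 1.41 and 0.715 CPM (−3.14 ± 0.21). The subunits on the chromosome side fell less, Spc24 by 1.91 ± 0.19 and Spc25 from 12.6, 11.4, 10.6 and 11.9 to 2.32, 4.42, 3.86 and 2.56 CPM (−1.83 ± 0.16). The count of Spc25 is uncertain, since 52.5% of its exonic bases lie under exons of Nostrin on the other strand. Knl1, the scaffold for BUB1, changed by −2.67 ± 0.19.

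Cenpa, the histone variant that marks centromeres, had 16.4, 16.7, 15.3 and 16.3 CPM in untreated and 2.18, 2.76, 2.88 and 2.38 CPM in treated replicates (−2.66 ± 0.12). The large motor gene Cenpe changed by −2.61 ± 0.13 and Cenpf, a fibrous corona protein gene, by −3.27 ± 0.14. Of 24 further genes of the inner centromere, the MIS12 complex and CENP-A loading, 18 were lower and none higher, with a median of −1.33. Cenpm, a gene of the inner centromere, fell by 3.18 ± 0.25, whereas Cenpx, which also serves in DNA repair, was at 0.03 ± 0.11 (edgeR adjusted p = 0.881).

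Condensins compact the chromosomes, and with Top2a and Mki67 their genes fell in 8 of 8 cases, over a wide range from −3.04 to −0.51. Top2a, which untangles sister DNA, had 86.9, 79.6, 71.1 and 87.1 CPM without and 11.8, 9.32, 10.7 and 12.3 CPM with TGF-β1 (−2.88 ± 0.08). Mki67, the coat protein of mitotic chromosomes, changed by −3.04 ± 0.10. Smc2, an ATPase arm of both condensins, went from 41.4, 43.3, 35.9 and 44.1 to 14.4, 13.5, 14.1 and 13.9 CPM (−1.56 ± 0.08). Smc4, the other arm (ENSMUSG00000034349, GRCm39 chromosome 3, 68912071 to 68941956, plus strand), kept most of its transcript, with 77.4, 74.4, 67.6 and 79.8 CPM in untreated and 53.7, 49.9, 50.1 and 56.6 CPM in treated replicates (−0.51 ± 0.06, edgeR adjusted p = 2.07e-07). None of the exonic bases of Smc4 or Bub3 lie under exons of another gene in GENCODE M39.

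The condensin I subunit genes Ncapd2, Ncaph and Ncapg changed by −1.73 ± 0.10, −2.11 ± 0.14 and −2.03 ± 0.15, although 25% of the exonic bases of Ncapg lie under exons of Lcorl. Ncapg2, a condensin II subunit, changed by −1.95 ± 0.10. The other 2 condensin II genes, from a separate list, were lower by less, Ncapd3 at −0.90 ± 0.10 and Ncaph2 at −0.15 ± 0.05. Of 15 cohesin genes, whose ring holds sister chromatids together, 8 were lower and none higher (median −0.24). The ring subunit gene Rad21 changed by −0.49 ± 0.04 and the acetyltransferase gene Esco2, active in S phase, by −3.70 ± 0.29. Treated libraries held only 0.138 to 0.493 CPM of Esco2, so the size of its fall rests on few reads. Esco1, a relative of Esco2, was at 0.02 ± 0.07 (edgeR adjusted p = 0.841).

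All 4 genes of spindle assembly fell by more than 4-fold. Tpx2, which activates Aurora A on microtubules, was at 43.8, 42.8, 43.7 and 44.6 CPM in untreated and 7.68, 9.25, 7.52 and 7.5 CPM in treated replicates (−2.45 ± 0.08). Prc1, which bundles the central spindle, went from 34.1, 34.2, 30.4 and 37.1 to 2.82, 4.14, 4.85 and 4.23 CPM (−3.08 ± 0.11). Nusap1 and Hmmr, which bind spindle microtubules, changed by −2.65 ± 0.16 and −2.76 ± 0.14. Of 32 other spindle and centrosome genes 18 were lower and 1, Haus2, higher (0.38 ± 0.09), and the median was −0.26. Ckap2l and Dlgap5, both spindle proteins of mitosis, changed by −3.08 ± 0.14 and −2.96 ± 0.16, while the γ-tubulin ring gene Tubgcp4, which serves interphase microtubules too, was at 0.01 ± 0.07 (edgeR adjusted p = 0.942). All 12 mitotic kinesin genes were lower, with a median of −2.64. Among them Kif20a changed by −2.40 ± 0.11, Kif2c by −3.01 ± 0.16 and Kif18a by −1.67 ± 0.23.

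Anaphase begins when the APC/C, switched on by CDC20, destroys securin and frees separase. The 4 genes of this step fell, Cdc20 from 29.8, 30.0, 24.1 and 28.8 to 5.63, 3.45, 4.64 and 6.07 CPM (−2.50 ± 0.12). Ube2c, the ubiquitin-conjugating enzyme of the APC/C, had 19.7, 22.9, 23.1 and 22.9 CPM in untreated and 3.73, 2.83, 3.16 and 3.51 CPM in treated replicates (−2.74 ± 0.11). Pttg1, which encodes securin, fell by 1.88 ± 0.20 and Espl1, which encodes separase, by 2.77 ± 0.24. Genes of the APC/C itself moved little. The list of 15 holds the core subunit genes and the coactivator gene Fzr1. Of these 5 were lower (Anapc1, Anapc5, Anapc7, Anapc15 and Fzr1) and 2 higher (Anapc16 and Cdc16), the median was −0.10 and none moved by 2-fold. Over all tested genes 18.5% were lower and 17.6% higher, so the 2 that rose are near the general share. Anapc1 changed by −0.27 ± 0.04 and Anapc7 by −0.31 ± 0.06, with Anapc13 at 0.01 ± 0.09 (edgeR adjusted p = 0.958).

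Cytokinesis genes fell in 4 of 4 cases. Anln, the anillin gene whose product scaffolds the contractile ring, had 70.5, 69.5, 62.1 and 71.6 CPM in untreated and 12.1, 13.4, 12.2 and 12.7 CPM in treated replicates (−2.44 ± 0.07). Of the pair that switches on RhoA at the equator, the exchange factor gene Ect2 changed by −2.16 ± 0.14, and Racgap1 went from 36.3, 34.4, 33.7 and 35.7 to 7.96, 8.63, 8.43 and 8.63 CPM (−2.06 ± 0.08). The citron kinase gene Cit went from 5.30, 6.49, 5.85 and 5.66 to 0.775, 0.621, 1.48 and 1.13 CPM (−2.53 ± 0.22). In a list of 17 scaffold genes of cytokinesis, most of which also serve the interphase cell, 4 were lower (Diaph3, Cep55, Sapcd2 and Depdc1a) and 4 higher (Arhgef2, Septin11, Myh9 and Chmp2a), with a median of −0.02. Of all tested genes 18.5% were called lower and 17.6% higher. Diaph3 and Cep55, which had the smallest p of the list, changed by −1.77 ± 0.10 and −3.02 ± 0.17, and Septin9 was at 0.00 ± 0.04 (edgeR adjusted p = 0.981). The last pair, the mitotic kinase gene Pbk and Pimreg, fell alike, by 3.18 ± 0.21 and 3.18 ± 0.22, with Pbk at 11.9, 10.4, 9.08 and 11.7 CPM in untreated and 0.845, 0.828, 0.913 and 2.02 CPM in treated replicates.

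**Figure D3:**
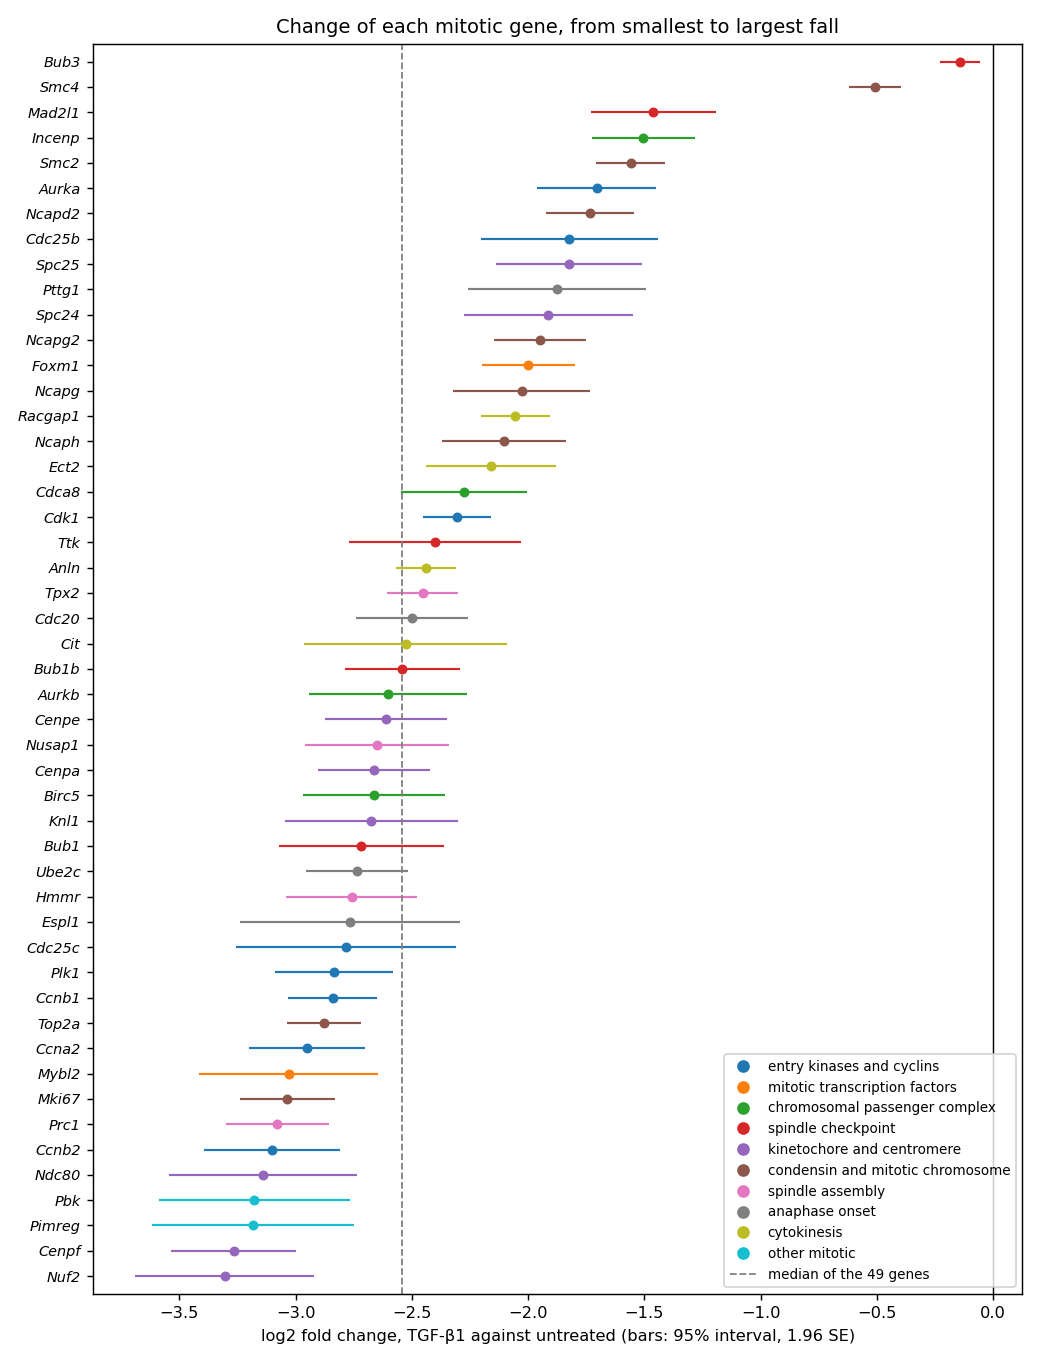
Log2 fold change of each of the 49 mitotic genes with its 95% interval, coloured by role and ordered from the smallest fall (Bub3, −0.14) to the largest (Nuf2, −3.30). All lie below 0, and 18 intervals hold the median of −2.54 (dashed).

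The members did not share 1 size of fall. The 95% interval of 18 genes held the median of −2.54, that of 18 lay wholly at a smaller fall and that of 13 wholly at a larger one. The quartiles of the 49 log2 fold changes were −2.84 and −2.0. The 18 with smaller falls held all 6 condensin genes (Smc2, Smc4, Ncapd2, Ncapg, Ncaph and Ncapg2), the kinetochore genes Spc24 and Spc25, the RhoA regulators Ect2 and Racgap1, and Cdk1, Cdc25b, Aurka, Foxm1, Incenp, Bub3, Mad2l1 and Pttg1. Among them the counts of Aurka, Spc25 and Ncapg are uncertain because of exons on the other strand. Cdc25c has the same limit, and its interval held the median. These 4 are the members with 20% or more of their exonic bases under other exons. Smaller overlaps remain in other members, among them Ube2c (19.0%), Ccna2 (17.5%), Prc1 (11.8%), Smc2 (10.4%) and Foxm1 (10.2%). The 13 with larger falls were Ccnb1, Ccnb2, Ccna2, Plk1, Mybl2, Ndc80, Nuf2, Cenpf, Top2a, Mki67, Prc1, Pbk and Pimreg.

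Levels were compared between genes in FPKM, which is per gene length. The deposited gene length, 1868 bases for Cdc20 and 4934 for Cdk1, need not be that of the transcript present. The order of genes and the number under 1 FPKM depend on it. In untreated cells Cdc20 was highest, at 14.9 ± 1.48 FPKM (SD, n = 4), followed by Smc4 at 14.2 ± 1.03 and Bub3 at 14 ± 0.494, and these 3 do not differ beyond their spread. Next were Ccnb2 at 11.3 ± 1.02 and Tpx2 at 9.21 ± 0.163. Cit was lowest, at 0.350 ± 0.0298 FPKM. In treated cells Bub3 led at 12.7 ± 0.547 FPKM, then Smc4 at 9.94 ± 0.596, with Cdc20 down to 2.61 ± 0.613. The number of members under 1 FPKM on average went from 3 to 33. Bub3 and Smc4 together made up 11.9% of the FPKM summed over the 49 genes in untreated and 37.0% in treated cells. The other 47 summed to 193 to 214 FPKM in untreated and 35.5 to 42.7 FPKM in treated libraries.

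Partners that work in 1 complex or pathway were compared within each library as the log2 ratio of their counts, each plus 0.5, which does not depend on scaling. Of 12 such pairs 5 had ratios that did not overlap between groups. The share of other gene pairs without overlap was not counted, so the 5 are not shown to be particular to partner genes. Each of the 5 gave the smallest p that 4 against 4 libraries allow (exact two-sided permutation test, p = 0.0286), which after Benjamini-Hochberg adjustment over 12 pairs is 0.0686, so no pair passed an adjusted 0.05. The ratio of Bub3 to Bub1 was 3.04, 3.02, 3.17 and 3.28 in untreated and 5.75, 5.90, 5.09 and 6.18 in treated replicates. The adaptor thus went from a mean log2 ratio of 3.13 ± 0.12 to 5.73 ± 0.46 (SD, n = 4 and 4) over its kinase. The ratio of Smc2 to Smc4 was −0.90, −0.78, −0.91 and −0.85 in untreated and −1.89, −1.88, −1.83 and −2.02 in treated replicates, a difference of −1.04. The proteins of these genes form the paired arms of condensin. The ratio of Incenp to Birc5 was 0.53 ± 0.17 in untreated and 1.70 ± 0.49 in treated replicates. That of Aurka to Aurkb was 0.25 ± 0.07 and 1.17 ± 0.34, and it rests on the uncertain count of Aurka. The difference for Ncapd2 against Ncapg was small (0.31), and on the deposited FPKM plus 0.1 it was 0.13 (exact permutation p = 0.114). This pair rests on the uncertain count of Ncapg.

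The other 7 pairs overlapped between groups. Spc24 against Spc25 differed by −0.04 (exact two-sided permutation p = 0.743, adjusted 0.771), with −0.62 ± 0.20 in untreated and −0.65 ± 0.19 in treated replicates. The counts of Spc25, and of Ncapg and Cdc25c in pairs given below, are uncertain because of exons on the other strand. For Nuf2 against Ndc80 the treated ratios spread widely, −1.04, 0.89, −0.40 and 1.42, against 0.30, 0.51, 0.68 and 0.52 in untreated replicates. Both genes have few treated reads. The differences were 0.19 for Bub1b against Bub1, 0.10 for Ncapg2 against Ncapg, 0.31 for Ccnb1 against Ccnb2, 0.91 for Cdc25b against Cdc25c and 1.04 for Pttg1 against Espl1 (exact permutation p = 0.571, 0.771, 0.2, 0.114 and 0.0571). On the deposited FPKM plus 0.1 the last difference was 0.36. A p above the threshold does not show that such ratios were equal.

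**Figure D4:**
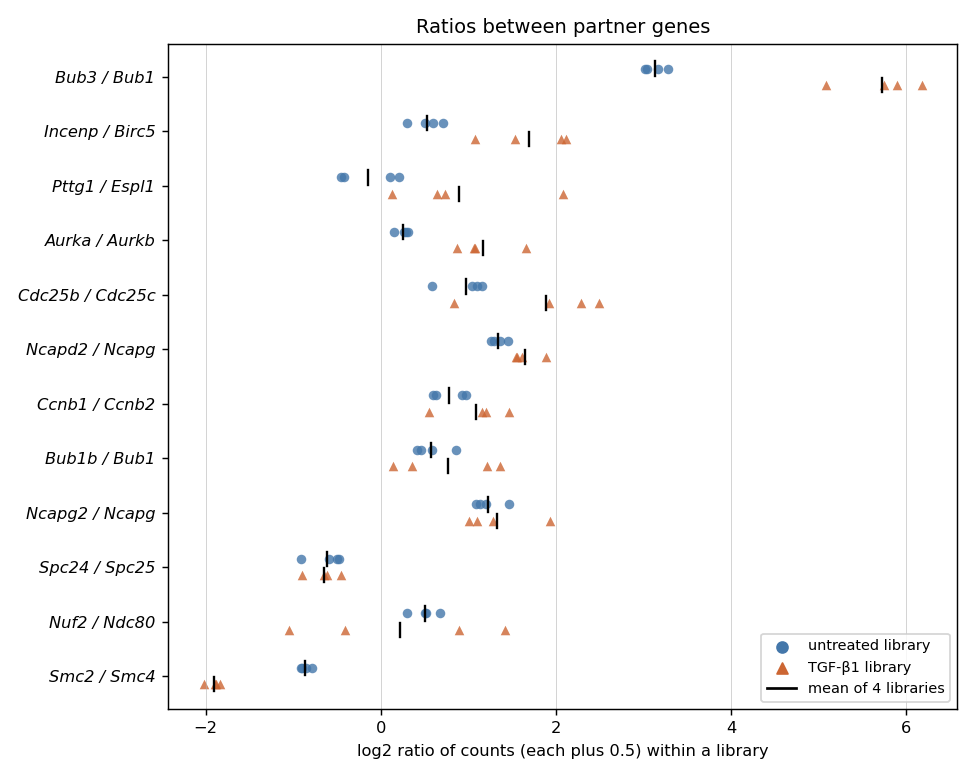
Log2 ratio of counts (each plus 0.5) of 12 pairs of partner genes in each untreated (circles) and TGF-β1 (triangles) library, with the mean of 4 as a bar. The groups do not overlap for 5 pairs, and Bub3 to Bub1 has the largest difference (2.60).

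Among the other genes of cell division, 193 in 11 lists, 123 were lower, 11 higher and 59 not called. DNA replication genes, which act earlier in the cycle, were lower in 33 of 34 cases, with a median of −1.51 against −2.54 for the mitotic genes. The difference between the lists was not tested. Uhrf1 changed by −2.70 ± 0.09 and Mcm3, a subunit of the replicative helicase, by −1.95 ± 0.07, while Orc2 of the origin recognition complex was at 0.00 ± 0.07 (edgeR adjusted p = 0.9999). Of 16 genes that control entry into mitosis 7 were lower and 3 higher (median −0.13). Of all tested genes 18.5% were called lower and 17.6% higher, so the 3 are near the general share. Melk and the cyclin F gene Ccnf changed by −2.86 ± 0.17 and −2.17 ± 0.17, while the CDK-activating cyclin gene Ccnh was at 0.00 ± 0.08 (edgeR adjusted p = 0.989). The 3 that rose, named after their values were seen, were Wee1, the kinase that holds CDK1 inactive (0.29 ± 0.06), and Cdk7 and Mnat1 of the CDK-activating kinase (0.21 ± 0.06 and 0.25 ± 0.06). The largest fall in these lists was that of Ska1, a microtubule-binding kinetochore gene also named after its value was seen, which was at a mean of 2.91 CPM in untreated and 0.101 CPM in treated cells (−4.75 ± 0.44). Treated replicates 1 to 4 held 0, 0.276, 0.0703 and 0.0595 CPM of Ska1, so the size of its fall rests on very few reads.

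**Figure D5:**
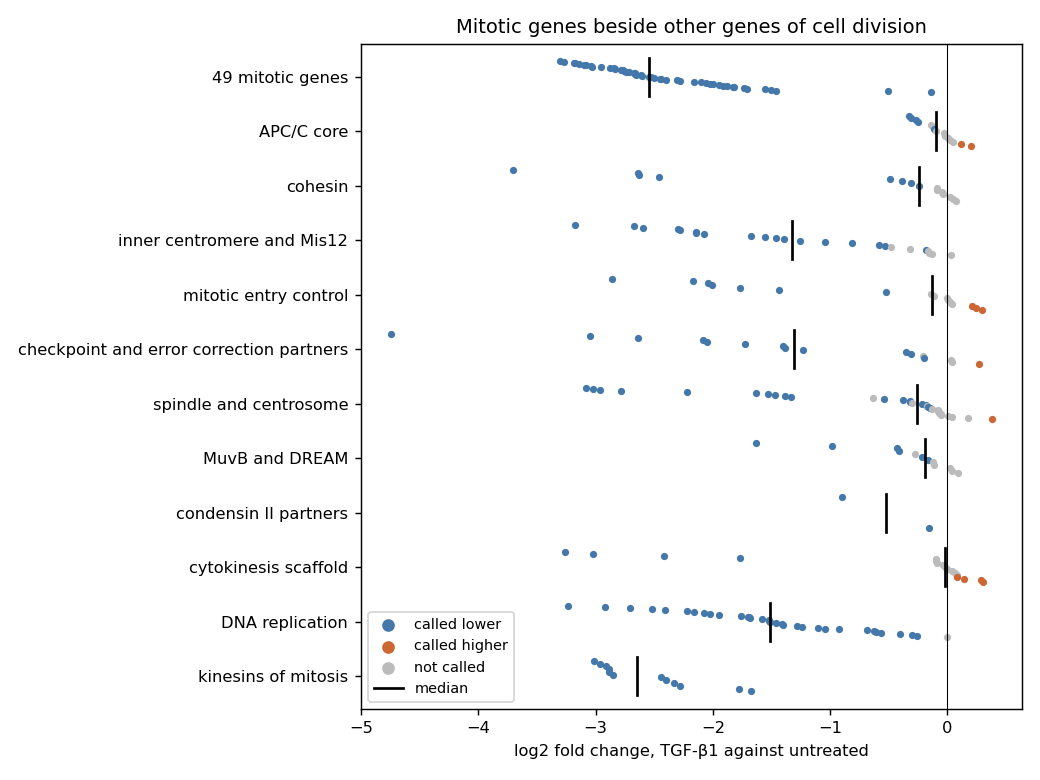
Log2 fold change of the 49 mitotic genes and of the genes in 11 other lists of cell division, 1 point a gene, coloured by call, with the median of each list as a bar. The mitotic genes (median −2.54) and mitotic kinesins (−2.64) have medians far to the left. The medians of the APC/C core list (−0.10), which includes Fzr1, and of the cytokinesis scaffolds (−0.02) are near 0. Even so, 4 scaffold genes lie between −3.26 and −1.77.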

How the data were processed

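RNA was read in 8 libraries, 4 untreated and 4 with TGF-β1, grouped by the labels. The authors deposited raw counts per gene, whole numbers with no scaling, and a table of FPKM computed by the authors. Per the submitters' processing notes the tools were CASAVA, HISAT2, featureCounts and Subread, with no version; the sources used here do not give a strand setting. The notes name GRCm38 and the design mm39, and 100% of 21765 matched coding genes overlap their GRCm39 position and 15.96% of 21219 their GRCm38.p6 position, so file coordinates are read as GRCm39.

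Genes were kept by filterByExpr (minimum count 10, minimum total 15), scaled by TMM and tested with the edgeR 4.0.16 quasi-likelihood test (limma 3.58.1, R 4.3.3) in a two-sided comparison of the 2 groups without covariates, called at an adjusted p under 0.05. Biological variation between replicates was 6.27%. CPM is the count over the TMM-scaled library total. SE is the size of the log2 fold change over the square root of F, and 95% intervals are 1.96 SE. The test was checked on simulated data. Same-numbered replicates did not deviate together (correlations of −0.034 to 0.039 over 13960 genes), so no block was used. The p-values measure the spread between these cultures. No 2 libraries agreed within sampling noise.

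The members and lists were chosen with earlier results of these data known. The text names all 49 members, of each division list the 2 genes with the smallest p and the one with the largest, and the 3 most abundant of each marker list. Of these, 1 gene is not reported here. Septin2 matched 2 rows and was left out. Exon overlaps are from GENCODE M39 and promoters from RefSeq. Of DESeq2 (1.42.0), limma on log2 FPKM, other scalings and filters, a replicate block and each library left out, the effect is given at the end.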

Additional observations from a re-analysis of the deposited data

Results flagged for a closer look

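In 126 groups of 4 values (each member and each partner ratio in each treatment group, the summed level and the ribosomal RNA share), 9 had 1 library whose gap to its neighbour took more of the whole range than the 95% critical value of Dixon's test; chance gives such a gap in about 1 in 20 groups. Pimreg was at 7.80 CPM in untreated replicate 3 and 13 to 14.1 CPM in the other untreated libraries (gap 0.831 of the range). The same library was low for Cenpe, 16.3 against 20.6 to 21.2 CPM (gap 0.874). It was also low for the sum of the 49 genes, 1109 against 1212 to 1219 CPM (gap 0.937). Untreated replicate 2 was high for Cdca8, 17 against 14.1 to 14.4 CPM (gap 0.882). Untreated replicate 1 was low for Ube2c, 19.7 against 22.9 to 23.1 CPM (gap 0.938). That library was low in ribosomal RNA as well, 0.0322% against 2.05% to 2.40% of counts (gap 0.854). Among treated libraries, replicate 2 was low for Bub3, 84.6 against 92.0 to 92.6 CPM (gap 0.93). Treated replicate 2 was high for Tpx2, 9.25 against 7.5 to 7.68 CPM (gap 0.901). Treated replicate 4 was high for Pbk, 2.02 against 0.828 to 0.913 CPM (gap 0.929).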

How the results depend on the processing

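Under the 17 alternatives, 48 of the 49 members kept their direction and stayed past the threshold in each. Bub3 kept its direction and lost its call without untreated replicate 2 and without treated replicate 2. The median log2 fold change of the members was −1.31 with limma on log2(FPKM + 1) and −2.34 with limma on log2(FPKM + 0.1), scales that understate the change of low genes, and 49 of 49 were lower under both. With each library left out in turn the median ran from −2.61 to −2.49. With the replicate block the median was −2.55, 49 members were lower, and 4971 genes were called in all; the block changed no call of a member. Scaled by library totals alone, the genes called were 3670 lower and 1304 higher, against 2579 and 2451, and the median of all tested genes moved to −0.07. Of the 12 partner ratios, 4 to 7 did not overlap between groups under the alternatives. Leaving out a library can only remove overlap, and no share of other gene pairs was counted beside these. In 4 members some treated library held under 10 counts, which limits the precision of their treated values.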
